A study of Ovis aries with 2 samples.

Results

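The genes described here are those for collagens, laminins and integrins, the fibres and sheets of the extracellular matrix and the receptors that hold cells to them. They were chosen by symbol alone: COL, digits, A and digits for collagen chains, LAMA, LAMB or LAMC with a digit for laminin chains, and any symbol that starts with ITGA or ITGB. Of the 27054 genes listed for both libraries, 75 matched, with 39 collagen, 11 laminin and 25 integrin symbols. The integrin symbols comprise 22 receptor subunits and 3 other genes, namely ITGB1BP1 and ITGB1BP2, whose proteins bind the inner tail of the beta 1 subunit, and ITGBL1, an integrin-like secreted protein. All 75 had at least 1 counted molecule in 1 of the libraries. A further 11 symbols of the same pattern, COL6A1 and ITGB3 among them, are in an annotation of the sheep genome but were not among the symbols here, and they are not analysed here.

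Single-cell RNA libraries of sheep testis at 8 months were compared, 1 labelled ZEA0.75 and 1 labelled control. ZEA is the usual abbreviation of zearalenone, an oestrogenic mould toxin, although the labels neither spell it out nor give the unit of the 0.75 or the route of exposure. Both were made with a 10x Genomics 3′ droplet kit, which labels molecules with short random tags (unique molecular identifiers, UMIs), and 1 UMI stands for 1 counted molecule. With 1 library per group, differences between the groups have no replicate check, and the intervals given below cover counting error only.

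Collagens are trimers. Types I, III and V form fibrils in connective tissue, type VI forms beaded microfibrils, and type IV forms the network of basement membranes, where it is joined by laminins, each a trimer of an alpha, a beta and a gamma chain. Integrins are pairs of an alpha and a beta subunit that bind these proteins and link them to the cytoskeleton. In the testis, basement membrane surrounds both the blood vessels and the seminiferous tubules, whose wall is built by peritubular myoid cells together with the Sertoli cells inside, and germ cells develop within.

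After quality filtering, 8804 ZEA and 6811 control cells were kept, from libraries of 22148456 and 53044981 UMIs. Cells were grouped without using any of the 75 genes, and the groups were named from marker genes that include none of them. The ZEA library held 350 stromal, 495 peritubular myoid, 332 pericyte, 2271 endothelial, 150 leukocyte, 1 Sertoli and 3748 germ cells. The control library held 11 stromal, 3 peritubular myoid, 4 pericyte, 4 endothelial, 42 leukocyte, 113 Sertoli and 4203 germ cells. The numbers of unnamed cells were 1457 in the ZEA and 2431 in the control library. Levels are given as CPM, the UMIs of a gene per 1e+06 UMIs of its class. Each named class held its own markers, with summed lists that reached 18894 CPM of stromal markers in ZEA stromal cells and 2348 CPM of endothelial markers in ZEA endothelial cells. All classes also held germ cell transcripts, between 2298 and 6386 CPM in the ZEA somatic classes, against 16472 CPM in ZEA germ cells. Median depth per cell in germ cells was 982 UMIs in the ZEA and 10811 UMIs in the control library. Because stromal, myoid, pericyte and endothelial cells were almost all from the ZEA library, levels across cell classes are given for that library, and ZEA is set against control in germ cells. Stromal, myoid, pericyte and endothelial cells are together called wall cells below. The term is shorthand for these classes and does not state where the cells lay in the tissue.

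Matrix genes divided the ZEA cell classes sharply. Summed over the 39 collagen genes, stromal cells reached 13997 CPM (95% Poisson interval 13658 to 14342), pericytes 6555 CPM, endothelial cells 4815 CPM and peritubular myoid cells 2853 CPM. Leukocytes stood at 177 CPM and germ cells at 490.1 CPM. The laminin sum was flatter, with 903 CPM in stromal cells, 716 CPM in pericytes, 680.2 CPM in myoid cells and 451 CPM in endothelial cells, against 173 CPM in germ cells. The 22 integrin subunits summed to 1655 CPM in pericytes, 1432 CPM in myoid cells, 1228 CPM in endothelial cells, 691 CPM in leukocytes and 689 CPM in stromal cells, and to 105 CPM in germ cells. Stromal cells thus held the most collagen and laminin transcripts and, with leukocytes, the fewest integrin transcripts of the somatic classes.

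A gene was said to be led by a class when its CPM there was at least 2 times that of every other class, among genes with at least 50 UMIs over the 6 ZEA classes. Of the 75 genes, 48 had that many, and 28 of these were led by a class, where 30.8% of all 11068 genes with enough counts were. Stromal cells led 12 of the 48 (2.39% of all genes), myoid cells 5 (1.67%), endothelial cells 5 (3.56%) and pericytes 2 (0.75%). Leukocytes led none (2.5%), and germ cells led 4 (20%). By family, 20 of 26 collagens, 2 of 8 laminins and 6 of 14 integrin symbols were led. For 19 of the 28 the interval of the ratio to the next class lay wholly above 2, and for 3 (COL2A1, COL11A1 and COL23A1) it reached below 1. The other 27 genes had between 0 and 45 UMIs, 4 of them none, and their order is not given. With no UMI, leukocytes allow up to 16.6 CPM, which is above the level of COL23A1, COL11A1 and COL11A2 in the class that led them.

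**Figure D1:**
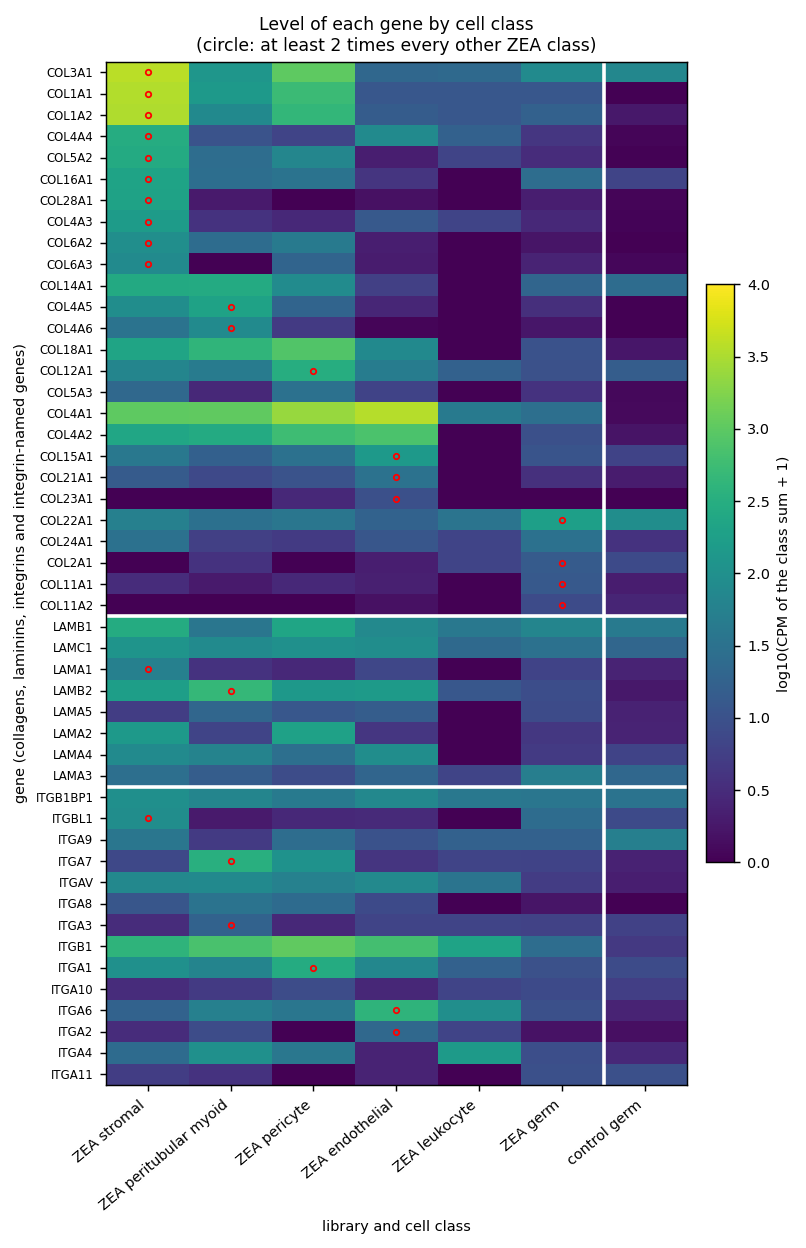
Level of each of the 48 genes with at least 50 UMIs in the ZEA classes, as log10 of CPM of the class sum plus 1, in the 6 ZEA classes and, at the right, in control germ cells. Circles mark the 28 genes whose level in a class was at least 2 times that of every other ZEA class; COL1A1, COL1A2 and COL3A1 stand out in stromal cells and COL4A1 in endothelial cells.

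Type I and III collagens and the type V chain COL5A2 were led by stromal cells, unlike the fibrillar chains COL2A1, COL11A1 and COL11A2, which germ cells led. COL1A1, one of the chains of type I collagen, stood at 3409 CPM in stromal cells, 532 CPM in pericytes, 143 CPM in myoid cells and between 11.1 and 11.4 CPM in endothelial, leukocyte and germ cells. COL1A2, its partner chain, stood at 3331 CPM in stromal cells, 449 CPM in pericytes, 78.7 CPM in myoid cells and 11.1 to 16.5 CPM elsewhere. Both chains of the type I trimer thus had the same first 3 classes in the same order, with 1574 and 1538 UMIs in stromal cells. COL3A1, which forms thin fibrils with type I collagen in soft tissues, stood at 3822 CPM in stromal cells, 1027 CPM in pericytes and 126 CPM in myoid cells. Stromal cells exceeded pericytes, the next class, 6.41-fold for COL1A1 (interval 5.65 to 7.30), 7.42-fold for COL1A2 and 3.72-fold for COL3A1 (3.38 to 4.10). COL1A1 was seen in 77.4% of stromal cells and 2.16% of endothelial cells, which should lack it, at median depths of 1249 and 2533 UMIs. With every cell thinned to 500 UMIs, the shares were 59.7% and 0.396%.

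Minor fibrillar and microfibrillar chains followed. COL5A2, which starts and narrows type I fibrils, had 273 CPM in stromal cells and 67.6 CPM in pericytes. COL6A2 had 95.3 CPM and COL6A3 82.3 CPM in stromal cells, on 44 and 38 UMIs, against 41.3 and 18.8 CPM in pericytes. COL28A1, known in the mouse mainly from glia of peripheral nerves, had 201 CPM in stromal cells (93 UMIs), 1.20 CPM in germ cells, 0.937 CPM in myoid cells and 0.512 CPM in endothelial cells. It had no UMI in pericytes and leukocytes, which allows up to 5.63 and 16.6 CPM there. COL16A1 had 206 CPM in stromal cells, 31.9 CPM in pericytes and 26.3 CPM in germ cells. Of the other type V chains, COL5A1 had 15 UMIs at 32.5 CPM in stromal cells, too few in all to enter, and COL5A3 was highest in pericytes at 30.05 CPM, with 21.7 CPM in stromal cells.

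Pericytes were the second class for type I and III collagen, and a marker count bears on this. The 17 stromal markers summed to 16584 CPM in pericytes, against 18894 CPM in stromal cells, but 14773 CPM of the pericyte sum was MGP, a calcification inhibitor also made by vessel walls. DCN, a small proteoglycan that defines stromal cells, stood at 965 CPM in pericytes and 7504 CPM in stromal cells, and PDGFRA, a stromal receptor, at 3.76 and 409 CPM. The part of stromal RNA or stromal cells in the pericyte levels was not tested.

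Of the collagens that bind to fibrils, COL16A1 was stromal, as above, and COL14A1 and COL12A1 were not led by stromal cells. COL14A1 was level between myoid cells at 274 CPM (243 to 307) and stromal cells at 266 CPM (221 to 318), with a ratio of 1.03 (0.829 to 1.28). COL12A1 was led by pericytes at 314 CPM, 4.83-fold above stromal cells at 65.0 CPM, and endothelial and myoid cells had 45.98 and 45.0 CPM. COL12A1 was thus highest in pericytes, and COL14A1 was shared by myoid and stromal cells.

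Type IV collagen split into 3 pairs, each highest in a different class. COL4A1 and COL4A2 encode the chains of the network found in nearly all basement membranes. COL4A1 was the most counted of all the genes, with 28010 of its 31154 UMIs in endothelial cells, at 3587 CPM there, 2438 CPM in pericytes, 1046 CPM in myoid cells and 1005 CPM in stromal cells. Its partner COL4A2 had the same order, at 733 CPM in endothelial cells, 577 CPM in pericytes, 281 CPM in myoid cells and 229.6 CPM in stromal cells. Endothelial cells exceeded pericytes 1.47-fold for COL4A1 (1.39 to 1.56) and 1.27-fold for COL4A2 (1.13 to 1.43), so neither was led. COL4A1 was seen in 90.1% of endothelial cells and 5.33% of leukocytes, at median depths of 2533 and 1028.5 UMIs, and in 66.8% and 1.33% after thinning to 500 UMIs.

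COL4A3 and COL4A4, which join COL4A5 in the network of the kidney filter, were stromal. COL4A3 stood at 158 CPM in stromal cells and 12.0 CPM in endothelial cells, 13.1-fold apart (9.54 to 18.02), and at 1.86 to 5.53 CPM in the other 4 classes. COL4A4 stood at 299 CPM in stromal cells and 80.4 CPM in endothelial cells, 3.72-fold apart (3.07 to 4.47). COL4A5 and COL4A6, which pair in the membranes around smooth muscle, were highest in peritubular myoid cells. COL4A5 had 199.6 CPM there and 88.8 CPM in stromal cells, 2.25-fold apart (1.60 to 3.22), and COL4A6 had 81.5 and 32.5 CPM. Endothelial cells, first for COL4A1, had 1.66 CPM of COL4A5 and 0.128 CPM of COL4A6, which was 1 UMI in 2271 cells. The members of each pair are neighbours in the sheep annotation of RefSeq (assembly ARS-UI_Ramb_v3.0), and in human and mouse each pair is transcribed in opposite directions from a shared promoter region. Of 8 neighbouring pairs among the genes, these 3 and COL5A2 with COL3A1 had at least 50 UMIs for both genes and the same first class, while ITGA2 with ITGA1 had different ones.

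**Figure D2:**
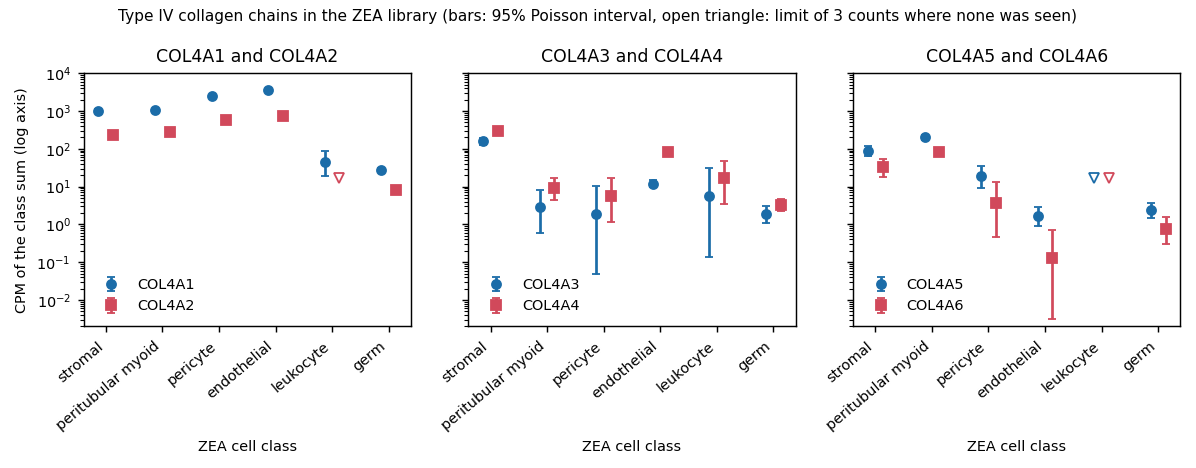
CPM of the class sum on a log axis for the 3 pairs of type IV collagen chains in the 6 ZEA classes, with 95% Poisson intervals. COL4A1 and COL4A2 peak in endothelial cells at 3587 and 733 CPM, COL4A3 and COL4A4 in stromal cells at 158 and 299 CPM, and COL4A5 and COL4A6 in peritubular myoid cells at 199.6 and 81.5 CPM; open triangles mark the limit of 3 counts where no UMI was seen.

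Type XV and XVIII collagens, basement membrane proteins that carry sugar chains, were also apart. COL15A1 was led by endothelial cells at 139 CPM, 3.56-fold above stromal cells at 39.0 CPM. COL18A1, the source of endostatin, stood at 813 CPM in pericytes, 409 CPM in myoid cells, 217 CPM in stromal cells and 78.1 CPM in endothelial cells. The ratio of pericytes to myoid cells was 1.99 (1.74 to 2.27), just short of a lead. COL21A1 and COL23A1 were led by endothelial cells at lower levels, 31.3 and 8.32 CPM.

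Fewer laminins than collagens were led by a class, 2 of 8 against 20 of 26. The laminin share was near the 30.8% of all genes, which includes the 20% led by germ cells. Germ cells led no laminin. Stromal and myoid cells led 1 each, where they led 2.39% and 1.67% of all genes. Of the beta chains, LAMB2 was led by myoid cells, at 459 CPM against 171 CPM in stromal cells, 149 CPM in endothelial cells and 133 CPM in pericytes, 2.68-fold above the next class (2.11 to 3.45). LAMB1 was highest in stromal cells at 290.2 CPM and pericytes at 223 CPM, and lower in endothelial cells at 76.2 CPM and myoid cells at 35.6 CPM. The beta chains thus had opposite orders in stromal and myoid cells. LAMC1, the gamma chain of most laminins, was even across the wall cells, with 115 CPM in stromal cells, 101 CPM in pericytes, 90.8 CPM in endothelial cells and 81.5 CPM in myoid cells, and the intervals of these 4 overlapped. LAMC3 had 21 UMIs in all 6 classes.

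Of the 5 alpha chains, which carry the main integrin-binding end of the trimer, 1 was led by a class, LAMA1. LAMA2, the muscle and nerve form, had 192 CPM in pericytes and 139 CPM in stromal cells, and 5.62 CPM in myoid cells. LAMA4, a form of vessel walls, had 91.2 CPM in endothelial cells, 80.1 CPM in stromal cells, 59.96 CPM in myoid cells and 28.2 CPM in pericytes. LAMA1, a chain of the tubule basement membrane, was led by stromal cells at 54.1 CPM, on 25 UMIs, with 6.15 CPM in endothelial cells. LAMA5 had no class above 19.7 CPM. LAMA3, a chain of epithelial laminin, was highest in germ cells at 49.5 CPM, with 28.2 CPM in stromal cells and 19.2 CPM in endothelial cells. LAMB3 had 13 UMIs in all classes.

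Among integrins, the common beta 1 subunit was present in all wall cells, and 5 alpha subunits, ITGA1, ITGA2, ITGA3, ITGA6 and ITGA7, were led by a class. Another 6 with enough counts, ITGA4, ITGA8, ITGA9, ITGA10, ITGA11 and ITGAV, were not. ITGB1 stood at 1065 CPM in pericytes, 718 CPM in myoid cells, 626 CPM in endothelial cells, 394 CPM in stromal cells, 205 CPM in leukocytes and 26.3 CPM in germ cells. ITGA6, a laminin receptor, was led by endothelial cells at 393 CPM, 4.19-fold above leukocytes at 94.0 CPM. ITGA7, a laminin receptor of muscle, was led by myoid cells at 334 CPM, with 107 CPM in pericytes and at most 6.497 CPM elsewhere. ITGA1, a collagen receptor, was led by pericytes at 285 CPM, with 99.6 CPM in stromal cells and 69.0 CPM in endothelial cells. ITGA2, also a collagen receptor, was led by endothelial cells at 21.6 CPM.

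ITGA3, a laminin receptor, was led by myoid cells on only 18 UMIs, at 16.9 CPM. ITGAV, which binds fibronectin and vitronectin, was even at 73.6, 77.8 and 74.5 CPM in stromal, myoid and endothelial cells, with 56.3 CPM in pericytes. ITGA4, a subunit of leukocyte and muscle-precursor receptors, was highest in leukocytes at 149 CPM (27 UMIs) and myoid cells at 99.3 CPM. ITGBL1 was led by stromal cells at 88.8 CPM and followed by germ cells at 25.4 CPM. The leukocyte subunits had few counts: ITGB7 had 14 of its 27 UMIs in leukocytes, and ITGAL, ITGAX and ITGB2 had 11, 3 and 3 UMIs in all classes. ITGAM had none, which with the size of the leukocyte class allows up to 16.6 CPM there.

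The few control cells of these classes gave values too thin to order. In the 11 control stromal cells COL1A1, COL1A2 and COL3A1 had 33, 34 and 46 UMIs, at 1437, 1481 and 2004 CPM. In the 4 control pericytes COL4A1 stood at 3445 CPM (23 UMIs), and in the 4 control endothelial cells at 2167 CPM (18 UMIs) with no UMI of COL1A1, COL1A2 or COL3A1. None of these classes held enough cells for a comparison with ZEA.

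The endothelial cells were of several kinds, and matrix genes differed among them. Clusters 16 and 19 had CA4, an enzyme of capillary endothelium, among their 10 top genes. Cluster 16 had SELP and VWF beside it, and in cluster 19 TM4SF18 came first. The top genes of cluster 22 included CXCL12, IGF2 and EFNB2, the last a marker of arterial endothelium. Those of cluster 23, with 69 ZEA cells, included MMRN1 and LYVE1, genes of lymphatic endothelium. COL4A1 stood at 3786 and 4244 CPM in clusters 16 and 19, 1644 CPM in cluster 22 and 1249 CPM in cluster 23. COL15A1 fell off further, at 143 and 187 CPM in clusters 16 and 19, 31.8 CPM in cluster 22 and 10.7 CPM (1 UMI) in cluster 23. Clusters 16 and 19 were thus highest for both.

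Cluster 23 was highest for LAMA4, LAMB1 and LAMC1. LAMA4 stood at 598 CPM there (452 to 777), against 90.6, 86.5 and 59.96 CPM in clusters 16, 19 and 22. LAMB1 stood at 716 CPM (555 to 909), against 67.3, 86.5 and 35.4 CPM. LAMC1 stood at 459 CPM (332 to 619), against 84.6, 92.2 and 80.9 CPM. All 3 chains of the LAMA4, LAMB1 and LAMC1 trimer were thus higher in the LYVE1 cluster than in the other endothelial clusters, with intervals that did not overlap. LAMB2 was the reverse, with 2 UMIs at 21.4 CPM in cluster 23 and 124 to 218 CPM in the others. ITGA9, an integrin needed in the mouse for lymphatic valves, was also highest in cluster 23 at 96.1 CPM, although on 9 UMIs, and stood at 2.20 to 24.5 CPM in the others. In cluster 22 ITGA2 stood at 73.6 CPM, LAMA3 at 65.4 CPM, COL18A1 at 179 CPM and ITGA6 at 527 CPM, each above clusters 16 and 19, where ITGA2 had 13.8 and 11.4 CPM and ITGA6 had 381 and 359.5 CPM.

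**Figure D3:**
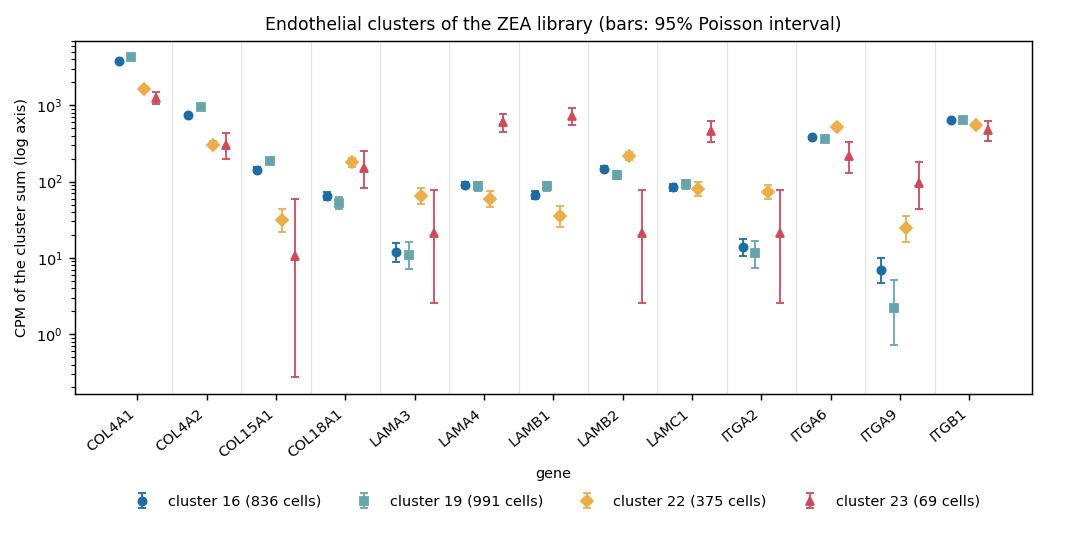
CPM of the cluster sum on a log axis for 13 genes in the 4 endothelial clusters of the ZEA library, with 95% Poisson intervals. Cluster 23, of 69 cells, lies above the others for LAMA4, LAMB1, LAMC1 and ITGA9 and below clusters 16 and 19 for COL4A1 and COL15A1.

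Genes that work on or beside these proteins were described from 3 lists. Of the 21 genes for collagen assembly and crosslinking, 15 had at least 50 UMIs in the ZEA classes, and the list summed to 3799 CPM in stromal cells, 2310.1 CPM in pericytes, 1298 CPM in endothelial cells and 1033 CPM in myoid cells. Stromal cells led 3 of the 15, namely PCOLCE, which speeds procollagen cleavage, at 1776 CPM, the crosslinking oxidase LOX at 104 CPM and the chaperone FKBP10 at 45.5 CPM. Pericytes led LOXL2, a related oxidase that acts on type IV collagen, at 135 CPM. The chaperone PPIB stood at 1122 CPM in stromal cells and SERPINH1, the collagen-specific chaperone, at 418 CPM there and between 266 and 282 CPM in the other 3 wall classes. Leukocytes stood at 713 CPM and germ cells at 169.7 CPM. At 4 of 15 led, the list was near the 30.8% of all genes, which includes the 20% led by germ cells. By class, the 3 stromal genes stand beside 2.39% of all genes and the 1 pericyte gene beside 0.75%.

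The basement membrane partners summed highest in endothelial cells, at 1487 CPM, against 1005 CPM in pericytes, 840.3 CPM in stromal cells and 624 CPM in myoid cells. Of the 9 genes with enough counts, endothelial cells led 3: TINAGL1, a matrix protein of vessel walls, at 382 CPM, the linker NID2 at 75.2 CPM and HSPG2, which encodes perlecan, at 21.3 CPM. SPARC, a collagen-binding protein, stood at 864 CPM in endothelial cells. Integrin adaptors and other collagen receptors summed highest in myoid cells, at 1615 CPM, where TLN1, which switches integrins on, had 832 CPM. FERMT2, which helps to activate integrins, had 319 CPM in myoid cells and 348 CPM in endothelial cells, and VCL, which ties talin to actin, had 166 CPM in myoid cells and 223 CPM in pericytes. Only LIMS1 of the 13 adaptor genes with enough counts was led, by pericytes at 54.5 CPM. The 3 of 9 stand beside 3.56% of all genes led by endothelial cells, and the 1 of 13 beside 0.75% led by pericytes. Over any class 30.8% of all genes were led, which includes the 20% led by germ cells. None of these counts was tested.

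In germ cells, ZEA was set against control for the 39 genes with at least 50 UMIs in both together. Of these, 22 were at least 2-fold higher in ZEA germ cells, where 16.9% of 11323 genes were, and 1 was at least 2-fold lower, where 9.53% were. The 39 had a median log2 ratio of 1.26, all genes one of 0.13. With ratios centred on that 0.13, the numbers were again 22 and 1. Collagens accounted for 11 of the higher genes out of 18, laminins for 5 of 8 and integrin symbols for 6 of 13. For 19 of the 39 the interval lay wholly above 2-fold, and for 6 it included no difference. The other 36 genes had 0 to 36 UMIs and were not compared.

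The 5 highest ratios were of genes with higher levels in wall cells. COL1A1 had 104 UMIs in ZEA germ cells and 1 UMI in control germ cells, a log2 ratio of 9.07 with an interval of 6.56 to 14.38. Of the 104 UMIs, 50 lay in 8 cells of cluster 25, in a library where the doublet caller did not work. The part of doublets was not tested. COL4A1 had 28.2 CPM in ZEA and 0.276 CPM in control germ cells (log2 ratio 6.68, 5.88 to 7.61). COL1A2 had 16.5 CPM in ZEA and 0.828 CPM in control germ cells (log2 ratio 4.32), COL4A2 8.32 and 0.637 CPM (3.71) and COL18A1 9.09 and 0.764 CPM (3.57). These ZEA levels were small fractions of those in the wall cells of the same library, 0.334% of the stromal level for COL1A1 and 0.787% of the endothelial level for COL4A1.

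Many marker genes of the wall cells were higher in ZEA germ cells too. In ZEA germ cells, each of 12 stromal markers stood at a median of 0.484% of its level in stromal cells (range 0.248 to 53.1%), and 14 endothelial markers at a median of 1.64% of theirs (0.743 to 2.33%). The summed stromal markers stood at 236 CPM in ZEA and 63.3 CPM in control germ cells, of which the complement gene C7 gave 61.0 and 61.4 CPM. MGP gave another 125 and 0.212 CPM of these sums. It was not particular to stromal cells, at 14773 CPM in ZEA pericytes, 9662 CPM in myoid cells and 5568 CPM in stromal cells. The summed myoid markers stood at 242 and 13.1 CPM, and the summed endothelial markers at 39.9 and 4.57 CPM. The summed pericyte markers stood at 56.6 and 31.8 CPM, of which the channel gene ABCC9 gave 31.4 and 30.7 CPM. Of the markers with enough counts, 5 of 6 stromal, 5 of 6 myoid, 3 of 5 pericyte and 4 of 4 endothelial were at least 2-fold higher in ZEA germ cells. The part of RNA from other cells in the ZEA germ levels was not tested. Genes were also kept only if their germ level reached 25% of their highest class in the same library. Of the 19 genes left, 6 were at least 2-fold higher, against 22 of 39 without the rule. The share of all genes under this rule is not given.

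**Figure D4:**
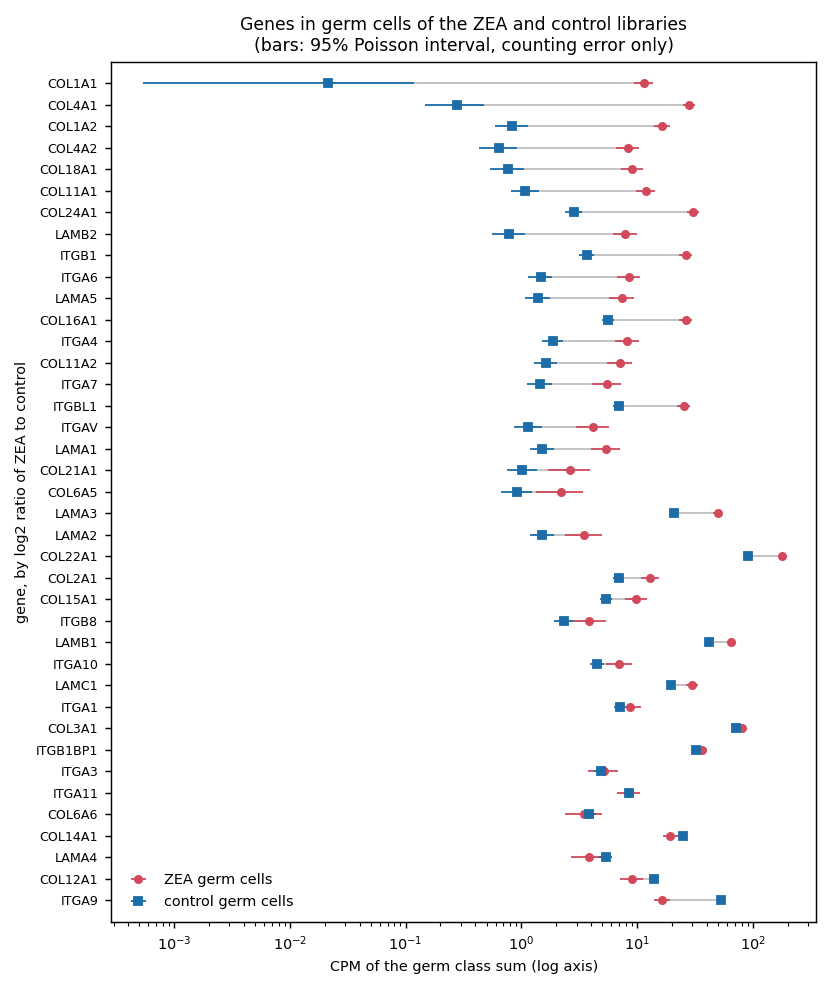
CPM of the germ class sum on a log axis for 39 genes in ZEA and control germ cells, with 95% Poisson intervals, ordered by the log2 ratio of ZEA to control. Wall-cell genes such as COL1A1 and COL4A1 are farthest apart at the top, COL3A1 and ITGB1BP1 nearly coincide, and ITGA9 at the bottom is lower in ZEA.

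Among genes at their highest in germ cells, and laminins present there, ratios covered a wide range. COL22A1, a collagen of tissue junctions such as that of muscle with tendon, had the most UMIs of the 39 in both libraries, at 178 CPM in ZEA and 90.9 CPM in control germ cells (log2 ratio 0.97, 0.89 to 1.05). It was seen in 28.9% of ZEA and 50.1% of control germ cells, and in 5.64% of ZEA endothelial cells, at median depths of 982, 10811 and 2533 UMIs. After thinning to 500 UMIs per cell the shares were 10.1% of ZEA and 5.09% of control germ cells, with 1.41% of ZEA endothelial cells. LAMA3 had 49.5 and 20.8 CPM in ZEA and control germ cells (log2 ratio 1.25), LAMB1 64.6 and 41.6 CPM (0.64) and LAMC1 29.9 and 19.6 CPM (0.61). COL2A1, the cartilage collagen, had 13.03 and 6.94 CPM (0.91), and COL11A1 and COL11A2, which join it in cartilage fibrils, had 11.9 and 1.08 CPM (3.46) and 7.12 and 1.64 CPM (2.12). COL24A1, a minor fibrillar collagen of bone, had 30.4 and 2.85 CPM (3.42), and 30.3 CPM in ZEA stromal cells.

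The lowest ratio was that of ITGA9, with 16.4 CPM in ZEA and 53.1 CPM in control germ cells (log2 ratio -1.69, -1.94 to -1.45). COL12A1 had 8.98 and 14.1 CPM (-0.65), LAMA4 3.83 and 5.33 CPM (-0.48), COL14A1 19.4 and 25.02 CPM (-0.37) and COL6A6 3.50 and 3.80 CPM (-0.12). The intervals of LAMA4 and COL6A6 included no difference.

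Among the partner lists, 3 of 10 assembly genes were at least 2-fold higher in ZEA than in control germ cells and 1 was lower, LOXL1 at 11.9 and 39.4 CPM. SERPINH1 had 5.80 and 0.446 CPM. Of 7 basement membrane partners, 5 were higher and 1 was lower. TINAGL1 had 7.55 and 0.0425 CPM, FN1 4.71 and 1.10 CPM, and NID1 14.8 and 35.6 CPM. Over all genes 16.9% were higher and 9.53% lower. Of 6 adaptors, TLN2 was higher at 18.9 and 6.97 CPM and ILK lower at 6.02 and 26.7 CPM. The sums of the 3 lists in ZEA and control germ cells were 169.7 and 201 CPM, 93.5 and 83.9 CPM, and 172 and 139 CPM.

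Germ cells of the libraries did not fall into the same clusters, so the class sums set cells of different kinds side by side. Only cluster 4 of the germ class held at least 50 cells of each library, 936 ZEA and 63 control. Where 1 library makes up nearly all of a cluster, library and cell state cannot be told apart. Clusters are therefore described one by one, by the germ cell markers they held. Cluster 12, named germ and with TKTL1 and TEX11 among its top genes, held 17 ZEA and 36 control cells and was left out. So were the ZEA cells of clusters that held few of them. Rankings among germ clusters below cover only the clusters described.

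COL3A1 was counted in control germ cells almost without its fibrillar partners. It had 3354 UMIs there, against 39 of COL1A2, 10 of DCN, 2 of COL5A2 and 1 of COL1A1. It thus had 86 UMIs for each of COL1A2, while in ZEA stromal cells it had 1.15 and in the 11 control stromal cells 1.35. In ZEA germ cells, with 742 UMIs of COL3A1 and 151 of COL1A2, it had 4.91. The control UMIs lay mainly in clusters 5 and 6, rich in the acrosome gene ACRV1 at 346 and 311 CPM. There COL3A1 stood at 166 and 139.9 CPM, in 470 of 580 and 478 of 617 cells, with no COL1A1. In clusters 7 and 11 it stood at 7.14 and 5.29 CPM, at median depths of 10071 and 17121 UMIs, against 14157 and 12750 UMIs in clusters 5 and 6. ACRV1 alone did not mark high COL3A1. The shallow, unnamed control cluster 0 had more ACRV1, at 435 CPM, and COL3A1 at 50.4 CPM in 89 of 1494 cells.

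In the ZEA library COL3A1 was highest among germ clusters in cluster 14, which had 509.5 CPM of ACRV1, at 162 CPM in 95 of 347 cells, with 4 UMIs of COL1A1 and 3 of COL1A2 beside 186 of COL3A1. In the deep ZEA cluster 25 it stood at 84.6 CPM together with 50 UMIs of COL1A1, 85 of COL1A2 and 132 of DCN. Over all germ cells COL3A1 was seen in 12.6% of ZEA and 35.4% of control cells, and in 5.02% of ZEA endothelial and 3.54% of control Sertoli cells, the last at a median depth of 947 UMIs. After thinning the shares were 3.84% of ZEA and 3.14% of control germ cells, against 1.19% of ZEA endothelial and 1.77% of control Sertoli cells. The class level of 81.2 CPM in ZEA and 71.2 CPM in control germ cells (log2 ratio 0.19) was thus close, in cells that carried it in different company.

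LAMB1 and LAMC1, a beta and a gamma chain of the same laminins, were high in several clusters rich in HMGB4, a gene of spermatids. HMGB4 was counted in every germ cluster described. In the ZEA library cluster 4, with 8844 CPM of HMGB4, they stood at 150.5 and 63.4 CPM. In ZEA cluster 21, with 6135 CPM of HMGB4, they parted, with LAMB1 at 109 CPM and LAMC1 at 22.1 CPM. In control clusters 3 and 2, with 11478 and 14667 CPM of HMGB4, LAMB1 stood at 112 and 70.2 CPM and LAMC1 at 42.4 and 25.4 CPM. ZEA cluster 4 and control clusters 3 and 2 also held TNP1, a spermatid chromatin protein gene, at 1897, 1946 and 2477 CPM. Control cluster 5 held 793 CPM of TNP1. Control clusters 4 and 9 had LAMB1 at 109.9 and 80.6 CPM on 9 and 30 UMIs, and cluster 5, with 8259.5 CPM of HMGB4, had 27.2 CPM. They were lowest in control clusters 7 and 11, at 5.03 and 3.25 CPM for LAMB1 and 2.29 and 6.92 CPM for LAMC1. LAMA3 was high in ZEA cluster 4 at 84.2 CPM, and in the control library in the shallow, unnamed cluster 9 at 220.3 CPM, on 82 UMIs. In cluster 4, the one shared by both libraries, LAMA3 stood at 84.2 CPM in ZEA and 109.9 CPM in control cells (9 UMIs).

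ITGA9 belonged to the AURKA-rich and PIWIL1-rich control clusters. It stood at 148 CPM in cluster 7, in 689 of 993 cells, and at 98.9 CPM in cluster 11, in 95 of 148 cells. Cluster 7 held 707 CPM of AURKA, a kinase of cell division, and cluster 11 held 435 CPM of PIWIL1, a partner of small RNAs in meiotic germ cells. Clusters 7 and 11 held 4 and 2 ZEA cells, so the ZEA germ class had almost none of them. Without both clusters the log2 ratio of ITGA9 was -0.07 and no gene was at least 2-fold lower. Of the control clusters described, the same clusters held the most COL12A1 at 37.5 and 35.4 CPM and COL14A1 at 52.5 and 41.1 CPM. Cluster 11 held the most ITGB1BP1, LAMA4 and ITGB1 among them, at 93.2, 38.7 and 18.7 CPM. Cluster 12 is not part of this ranking. COL22A1 was the opposite, at 10.8 and 12.2 CPM in clusters 7 and 11 and 88.1 to 256 CPM in the other 8 control clusters described.

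A last group was highest in shallow clusters that held both SYCP1, a gene of paired meiotic chromosomes, and the spermatid gene HMGB4. HMGB4 stood at 4179 CPM in ZEA cluster 1 and 3772 CPM in control cluster 0, and PIWIL1 at only 27.9 and 26.0 CPM. The stage of these clusters was not settled. In ZEA cluster 1, with 587 CPM of SYCP1 and a median of 908 UMIs per cell, COL24A1 stood at 127 CPM, COL16A1 at 82.5 CPM, ITGBL1 at 68.5 CPM and COL11A1 at 60.4 CPM. In control cluster 0, unnamed for its low depth of 1045 UMIs and with 251 CPM of SYCP1, they stood at 39.2, 34.6, 68.2 and 17.3 CPM. In each library these were the highest values among germ clusters for COL24A1, COL16A1, ITGBL1 and COL11A1. Cluster 0 was not part of the control germ class, which bears on their ratios: with the shallow control clusters counted as germ cells, the log2 ratio of COL24A1 was 2.83 in place of 3.42 and that of ITGBL1 1.46 in place of 1.87.

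**Figure D5:**
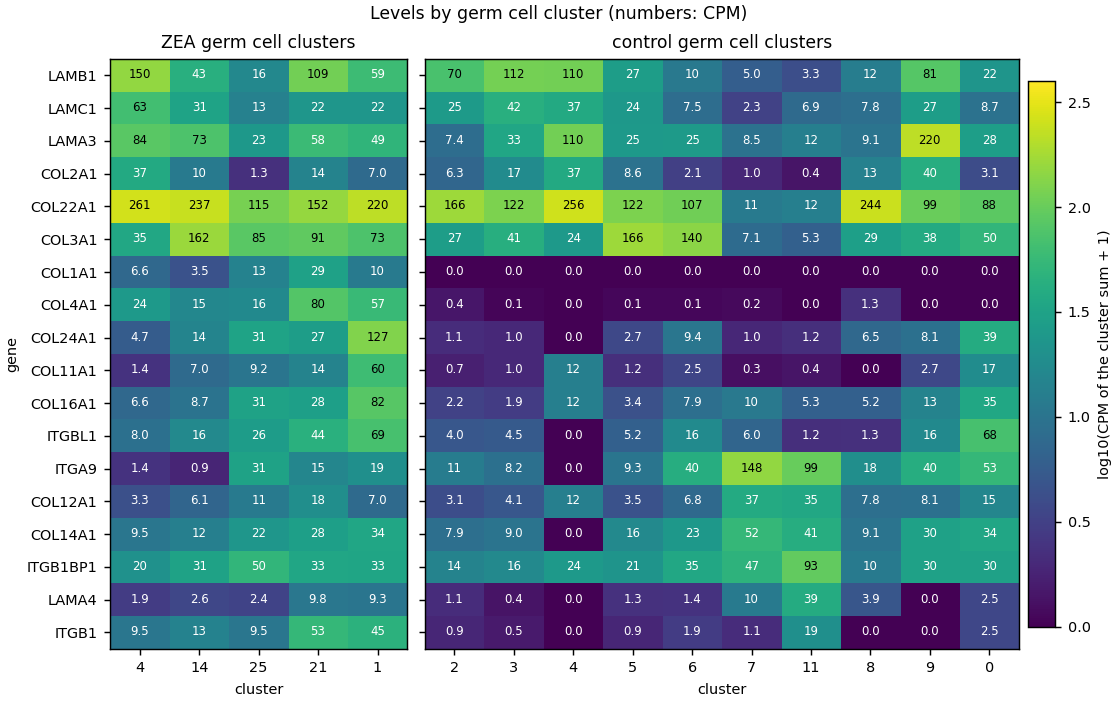
CPM of the cluster sum, printed in each cell and coloured on a log10 scale, for 18 genes in 5 ZEA and 10 control germ cell clusters, of which control clusters 8, 9 and 0 were unnamed for their low depth. COL3A1 peaks in ZEA cluster 14 and control clusters 5 and 6, LAMB1 in ZEA cluster 4 and control cluster 3, and ITGA9 in control clusters 7 and 11.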

How the data were processed

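The deposited files hold UMI counts per gene and cell, unnormalised, which the authors made with Cell Ranger: version 3.1.0 for ZEA and 5.0.0 for control, per the file headers. STAR and Cell Ranger 3.1.0 are listed in the submitters' processing notes. Whether the difference in version moves counts between the libraries was not tested. Genes are those paired with symbols in the files, of which 10636 have none.

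Cells with under 500 UMIs, under 200 genes or over 20% mitochondrial UMIs (13 genes) were removed, 4 in ZEA and 21 in control. Scrublet removed 1 doublet in ZEA (0.0114%), where it did not work, and 198 in control (2.82%), so ZEA doublets remain. The libraries shared 15 barcodes. Cells were clustered in scanpy 1.11.5 (2000 variable genes less the 75 genes and their partner lists, 30 components, 15 neighbours, Leiden resolution 1). Of 27 clusters 21 were named from marker lists, by criteria set after the clusters had been seen. Cells of 6 clusters stayed unnamed, among them shallow control clusters 0, 8 and 9. A cluster was shallow when 3 times its median depth was below the median of its main library. These medians were 1405.5 UMIs in ZEA and 4121 UMIs in control. Shallow clusters with no marker of their best list among their 10 top genes were left unnamed. ZEA cluster 21, at 595 UMIs, was shallower than control clusters 0, 8 and 9 but stayed in the germ class.

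Counts were summed per class and divided by the class total. Intervals are exact Poisson for levels and exact conditional binomial for ratios, both at 95% (scipy 1.17.1). A class or group with no UMI allows up to the level of 3 counts. The steps were tested on simulated data. Genes named by rule are those led by a class, the 4 highest of each class, the 5 highest and 5 lowest germ ratios per family, their partner chains and, per partner list, the 3 highest and the 2 largest germ ratios. Others, and the genes followed by cluster, were named after their values were seen. The genes, lists and rules were chosen with earlier results of these data known. No test or p-value was computed, since each group is 1 library. Values of 1 gene are not reported here.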

Additional observations from a re-analysis of the deposited data

Results flagged for a closer look

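One value lay in cells that none of the comparisons use. COL4A1 stood at 1421 CPM (1349 to 1496) in cluster 17, which was left unnamed because mitochondrial genes led it although endothelial markers scored highest. It held 979 ZEA cells at a median depth of 684 UMIs, and 462 of them had at least 1 of its 1462 COL4A1 UMIs. ITGB1 stood at 322 CPM there. In the named ZEA classes COL4A1 ranged from 28.2 CPM in germ cells to 3587 CPM in endothelial cells.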

How the results depend on the processing

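No paired analysis was possible because each group is 1 library, and no replicate could be left out. Across classes, the first class of the 28 led genes was kept under every alternative that could follow them, 26 of 28 where coarser clusters (resolution 0.5) or a marker gate left pericytes with 0 and 2 cells, with the exception of 1 gene when cells were thinned to 500 UMIs. The number of led genes was 15 of 29 that entered after thinning and 16 of 32 with at least 200 UMIs per gene, against 28 of 48, and 26 to 32 under the other alternatives. In germ cells the number at least 2-fold higher in ZEA was 10 of 15 that entered after thinning, 6 of 22 with at least 200 UMIs per gene and 6 of 19 under the 25% rule for free RNA, against 22 of 39. It was 27 with equal weight per cell and 29 with the marker gate. The share over all genes under each alternative is not given in this section. The counts here therefore show only how the numbers moved, not how they stand against all genes.

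Further alternatives were chosen after seeing the data. In germ cells of at least 5000 UMIs, 479 ZEA and 3259 control cells, 18 of 39 genes were higher and 4 lower. Shares over all genes are not given for these settings either. Within cluster 0 alone 5 were higher and 2 lower, and within cluster 4 alone 0 and 0, of 10 and 7 genes with enough counts. Without clusters 7 and 11, 20 were higher and 0 lower. In cluster 0 the direction turned for ITGBL1 (log2 ratio -0.75) and for ITGB1BP1, whose interval over all germ cells included no difference. ITGB1BP1 stood there at 10.2 CPM in ZEA (1 UMI) and 29.5 CPM in control cells (58 UMIs). In cluster 4 the direction turned for LAMA3 (-0.38) and COL4A1 (-0.60). COL4A1 had no control UMI there and was set to 3 counts, so its sign follows from that setting. The cause of the other changes was not tested. Which germ cells each library held, and depth, cannot be told apart from ZEA against control.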

Other observations

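Other unnamed ZEA cells also held matrix and receptor transcripts. Cluster 24, led by the antibody genes IGHM and JCHAIN, had COL4A1 at 170.2 CPM. Cluster 26, led by PLTP, MME and SFRP2 and holding the Leydig cell hormone gene INSL3, had COL4A1 at 141 CPM and ITGB1 at 317 CPM.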
